A study of Mus musculus with 18 samples.

Results

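The 9 genes Kdr, Flt1, Tek, Tie1, Egfl7, Vwf, Pecam1, Emcn and Esam, which mark the endothelial cells that line blood vessels, were followed in the vestibular organ of Igf1-/- and Igf1+/+ mice. They are a list of endothelial genes, chosen with earlier results of these data known and found by symbol in the array annotation. All 9 were among the 19938 genes measured. Each was read by 1 probe set. The vestibular organ is the balance part of the inner ear, and Igf1 encodes insulin-like growth factor 1. The mice were on a hybrid Mf1 and 129/sv background and were taken as embryos at E18.5 and after birth at P15 and P90, with 3 Mouse Gene 1.1 ST arrays per genotype and age, 18 in all. Igf1-/- mice are called null and Igf1+/+ mice wild type below. By the labels, mice were perfused with paraformaldehyde before the inner ear was dissected. Each array is labelled a biological replicate, but not as 1 animal or a pool, so the tests measure only how much these arrays spread.

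Blood vessels grow and mature through 2 receptor systems that these genes cover. Vascular endothelial growth factor A acts through Kdr (VEGF receptor 2), the main signalling receptor, while Flt1 (VEGF receptor 1) binds the same ligand tightly and has weaker kinase activity, so that it can act as a trap. Angiopoietins act through Tek (also called Tie2), with Tie1 as its partner receptor, and stabilise vessels. Pecam1, Esam and Emcn sit on the endothelial surface and at cell contacts, Egfl7 is secreted into the vessel matrix, and Vwf is the clotting factor that captures platelets. In the inner ear, a capillary bed supplies the sensory organs and the tissue that makes endolymph, and its endothelium forms a barrier towards the blood.

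To show what lies before the starts of members that changed with age, the 250 bases upstream of the RefSeq start (assembly GRCm38.p6) are printed for Kdr (chr5:75978456-75978705, minus strand), Tek (chr4:94739039-94739288, plus strand), Emcn (chr3:137340828-137341077, plus strand) and Flt1 (chr5:147726012-147726261, minus strand). Capitals mark GGAAG or its complement CTTCC, the core bound by ETS factors such as Erg. Each window overlaps the annotated span of its gene, which reaches an earlier start.
Kdr: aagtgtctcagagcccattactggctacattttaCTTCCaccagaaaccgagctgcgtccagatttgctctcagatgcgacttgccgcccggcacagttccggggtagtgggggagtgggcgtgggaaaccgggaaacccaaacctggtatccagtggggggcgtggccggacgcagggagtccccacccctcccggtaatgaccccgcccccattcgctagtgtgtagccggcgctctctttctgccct
Tek: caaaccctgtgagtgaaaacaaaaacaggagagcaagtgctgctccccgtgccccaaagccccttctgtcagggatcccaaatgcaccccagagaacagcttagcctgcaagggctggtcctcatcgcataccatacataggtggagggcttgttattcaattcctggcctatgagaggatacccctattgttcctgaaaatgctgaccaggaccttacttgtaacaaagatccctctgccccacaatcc
Emcn: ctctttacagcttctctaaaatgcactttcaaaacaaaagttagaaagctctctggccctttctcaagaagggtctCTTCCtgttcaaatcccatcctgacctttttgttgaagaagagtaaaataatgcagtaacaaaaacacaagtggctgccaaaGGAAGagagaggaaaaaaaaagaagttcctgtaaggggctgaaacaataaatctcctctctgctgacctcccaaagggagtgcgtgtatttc
Flt1: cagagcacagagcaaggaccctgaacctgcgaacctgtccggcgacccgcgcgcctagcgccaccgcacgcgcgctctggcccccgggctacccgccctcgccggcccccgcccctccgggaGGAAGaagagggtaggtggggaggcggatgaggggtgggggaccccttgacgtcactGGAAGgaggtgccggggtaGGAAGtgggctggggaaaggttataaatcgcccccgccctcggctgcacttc
The windows of Kdr, Tek, Emcn, Flt1, Tie1 and Egfl7 were searched, and those of Pecam1, Esam and Vwf were not analysed here. The motifs, on both strands, were GGAAG for ETS factors, ACAAAG for SOX factors, TATAAA, a core promoter box, and AGATAA, the site of a family of zinc finger factors active in blood and endothelium. AGATAA can share its first letters with the end of GGAAG or ACAAAG, but it matched in none of the windows of these 6 genes (9.988% of all windows). The ETS core matched 1 time before Kdr, 2 times before Emcn, 3 times before Flt1, 6 times before Tie1 and 0 times before Tek, and among the starts of Egfl7 it matched 4 times before the first, 2 times before the second and 0 times before the third. Of all 32851 promoter windows of this length, 64.07% held it, so a match was common. ACAAAG matched before Tek and before the third start of Egfl7 (16.46% of all windows), and TATAAA before Flt1 (12.37%). Kdr and Emcn, which fell with age, and Flt1, which rose, all held the ETS core. These matches describe letters only.

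The arrays were compared after quantile normalization, because the medians of the deposited values ran from 3.88 to 4.82. Values are on a log scale of unstated base. A difference of 1 log unit means 2.72-fold for natural logs and 2-fold for log2, and differences are given with the standard error of a limma fit over all 18 arrays. A gene passed, and is then said to rise or fall, at an adjusted p under 0.05 over all 19938 genes. On principal component 3, which held 5.46% of the variance, 4 arrays stood apart from the others of their ages. These were null 2 and 3 of E18.5 and wild type 1 and 2 of P90. They lay at 13.5 to 18.8, against -25.0 (P90 null 1) to -7.96 in the other arrays of E18.5 and P90. The P15 arrays lay between, at 0.83 to 9.92. Results that rest on the 4 arrays are given with and without them. Xist, the RNA of the inactive X chromosome, lay at 7.42 to 7.91 in the P90 null arrays and at 1.86 to 3.33 in the P90 wild-type arrays. A difference in Xist and a difference in genotype therefore cannot be told apart at that age. In wild type Xist lay at 7.43 to 7.87 at E18.5 and at 7.48, 5.34 and 7.48 in P15 arrays 1, 2 and 3. A wild-type difference between P90 and either earlier age therefore cannot be told apart from one in Xist. The same arrays enter the comparisons over both genotypes. In the P15 null arrays Xist was at 7.61, 8.09 and 4.09. The mean of Y-linked genes was 2.00, 5.44 and 5.49 in P90 null 1, 2 and 3 and 6.12 to 6.32 in the P90 wild-type arrays. P90 null 2 and 3 therefore held both Xist and Y-linked RNA, as did all 6 arrays at E18.5 (Xist 7.31 to 8.01, Y-linked genes 5.23 to 5.95). So did P15 null 1 and P15 wild type 1 and 3, with Y-linked genes at 5.69, 5.56 and 5.90. In P15 wild type 2, with Xist at 5.34, Y-linked genes were at 6.19. The labels do not say whether samples were pooled. The mean of Y-linked genes was tried as a covariate, called the sex score. It was 2.00 in P90 null 1, 3.29 in P15 null 2 and 5.23 or higher in every other array. It therefore mainly sets those arrays apart and cannot adjust for the Xist difference at P90. Igf1 itself was at 6.98 to 7.07 in wild type and 6.40 to 6.88 in null at E18.5, at 5.87 to 6.11 and 5.42 to 5.69 at P15, and at 5.39 to 5.63 and 5.31 to 5.51 at P90. None of its genotype differences passed, and where its probes lie relative to the deletion was not given in the sources used here. Its level therefore checks nothing.

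All 9 endothelial genes were measured above the dimmest values, but not all were bright. By group means, Tie1 lay at percentiles 46.7 to 56.8 of all genes and Esam at 53.7 to 61.8. Emcn lay at 71.0 to 87.3. The lowest level of any of them in any array was 4.41, against a mean of 2.00 for Y-linked genes in the array that had the least of them. The organ's own genes were brightest at E18.5, and at P15 and P90 their mean was below 4.41 in every array. The mean level of 10 genes of the vestibular epithelium, led by the hair cell myosin Myo7a, was 5.15 to 5.61 over the E18.5 arrays, 3.80 to 4.19 at P15 and 3.62 to 4.37 at P90. In RNA from a whole organ, fewer cells of a type and less RNA per cell cannot be told apart.

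**Figure D1:**
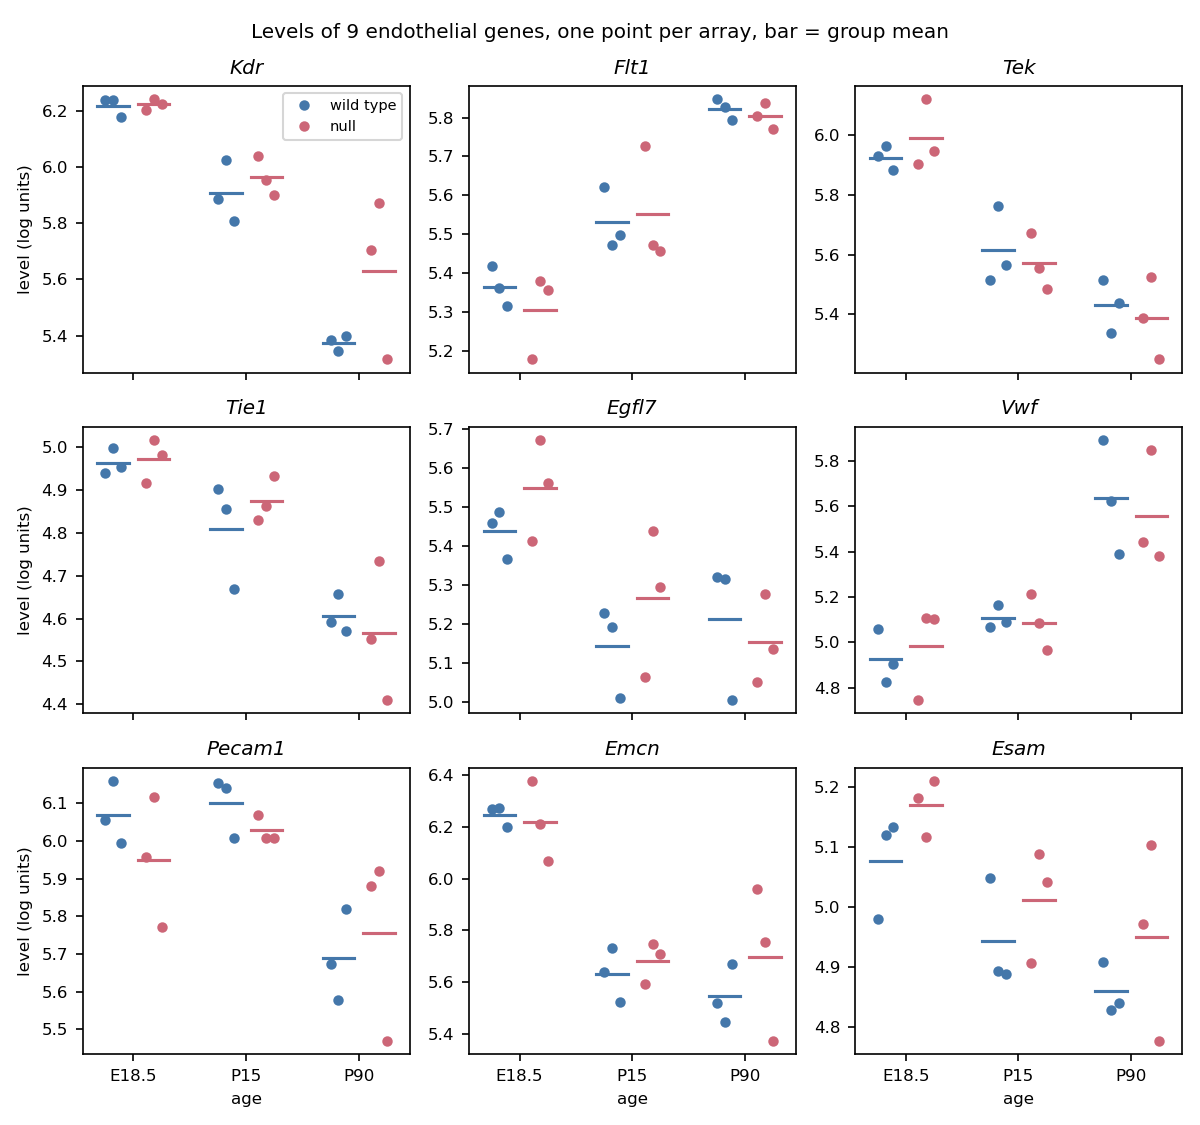
Level of each of the 9 endothelial genes (log units, vertical axis, own scale per panel) at E18.5, P15 and P90 in wild type (blue) and null (red); each point is 1 of 3 arrays and each bar a group mean. The genotypes overlap in every panel and age. After quantile normalization Kdr, Tek and Emcn are lower at P90 than at E18.5, and Flt1 and Vwf higher. Over both genotypes, Emcn passed only between E18.5 and P15 of the neighbouring ages, and Vwf only between P15 and P90. From E18.5 to P90 Tek and Emcn did not pass on the deposited scale.

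The first question was whether loss of Igf1 was accompanied by a change in these genes at any age. No endothelial gene passed the test between genotypes. The counts were 0 of 9 at E18.5, P15 and P90, against 0.0802%, 0.015% and 0.296% of all genes, and 0 of 9 for the mean difference over the ages (0.0351% of all genes). Before adjustment the limma p was under 0.05 for 0, 0 and 1 of the 9 genes at the 3 ages and for 0 for the mean, against 12.5%, 6.97%, 11.1% and 7.68% of all genes. For all 9 genes the null and wild-type arrays overlapped at every age, whereas 19.7%, 16.5% and 10.5% of all genes had groups that did not overlap at E18.5, P15 and P90.

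At E18.5 the differences, written as null minus wild type, ran from -0.12 ± 0.12 for Pecam1 to 0.11 ± 0.11 for Egfl7, with adjusted p of 0.65 to 0.99. Kdr differed by 0.0053 ± 0.11 and Tie1 by 0.0089 ± 0.083. At P15 they ran from -0.072 ± 0.12 for Pecam1 to 0.12 ± 0.11 for Egfl7, with adjusted p of 0.92 to 0.99. The 95% intervals show which differences these arrays would still allow. Over the 9 genes they lay within -0.37 and 0.36 at E18.5 and within -0.32 and 0.36 at P15. The signs were not stable at this size, since on the deposited scale the E18.5 value turned to -0.058 for Egfl7, -0.22 for Kdr and -0.11 for Tie1.

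At P90 Kdr had the largest difference among the 9 genes, 0.26 ± 0.11 higher in null, with a 95% interval of 0.027 to 0.48, an unadjusted limma p of 0.031 and an adjusted p of 0.40. Its null arrays were at 5.70, 5.87 and 5.31, so that null 3 lay below all 3 wild-type arrays and the other two above them. Without null 3 the difference was 0.41 with an adjusted p of 0.028, and Kdr was then the 1 member called. The adjusted p over all the alternatives was otherwise at or above 0.22. With the sex score as a covariate it was 0.77 for a difference of 0.22, but at P90 that score mainly sets null 1 apart. The other members differed at P90 by -0.079 ± 0.14 (Vwf) to 0.15 ± 0.12 (Emcn), with adjusted p of 0.67 to 0.95.

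A difference that depends on age would show as unequal genotype differences. The F-test that they are equal at the 3 ages passed for 0 of 9 genes, against 0.256% of all genes, with adjusted p from 0.58 for Kdr to 0.99 for Esam. Its unadjusted p was under 0.05 for 0 of the 9, against 14.5% of all genes.

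**Figure D2:**
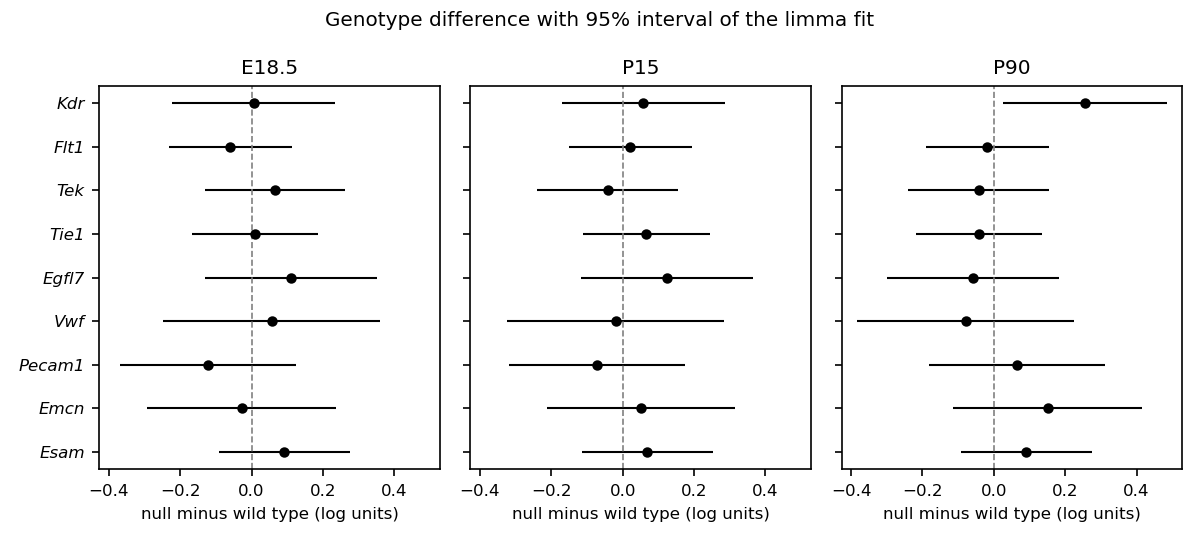
Null minus wild type (log units, horizontal axis) with the 95% interval of the limma fit for the 9 endothelial genes at E18.5, P15 and P90. Every interval at E18.5 and P15 includes 0, and at P90 that of Kdr alone lies above it, at 0.027 to 0.48.

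The second question was how the genes change as the organ matures. Over both genotypes together, a comparison added after the data were seen, all 9 genes passed between E18.5 and P90, of which 2 were higher at P90 (Flt1 and Vwf) and 7 lower (Kdr, Emcn, Tek, Tie1, Egfl7, Pecam1 and Esam), though the last 4 of these, from Tie1 on, turned above 0 on the deposited scale. This was read against 55.9% of all genes, 26.8% higher and 29.1% lower, so that most genes of the array moved between these ages. The median difference was -0.31 over the 9 genes and -0.017 over all genes. Direction depended on the scale. With array medians subtracted the counts were again 2 higher and 7 lower, but on the deposited scale, where the median of all genes shifted by 0.55, they were 3 higher (Flt1, Vwf and Esam) and 1 lower (Kdr). Of all called genes, 47.9% were higher after quantile normalization, 91.8% on the deposited scale and 34.5% with array medians subtracted. Kdr fell and Flt1 and Vwf rose, each past the test, under all 3 scalings. Without the 4 arrays that stood apart 7 genes passed, and Pecam1 (-0.23) and Esam (-0.23) did not. That fit called 4721 of all 19938 genes higher and 5069 lower.

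The genes passed at different steps, with Kdr, Flt1 and Tek passing in both, and a difference between the steps was not tested. Between E18.5 and P15, 5 of 9 passed over both genotypes (1 higher and 4 lower, against 53.2% of all genes, 24.4% higher and 28.8% lower), and between P15 and P90, 6 of 9 (2 higher and 4 lower, against 29.5%, 14.7% higher and 14.9% lower). On the deposited scale these counts were 2 higher and 0 lower in each interval. Without the 4 arrays they were 3 (1 higher, 2 lower) and 4 (2 higher, 2 lower). Of all 19938 genes, that fit called 4487 higher and 5245 lower in the first interval, and 1848 higher and 1940 lower in the second. In the first interval Kdr (-0.28) and Egfl7 (-0.22) then missed the threshold, and in the second Pecam1 (-0.28) and Tek (-0.18) did.

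Among the VEGF receptors, Kdr fell. The gene, at chr5:75932827-75979072 in GRCm38.p6, stood at 6.24, 6.24 and 6.18 in wild type and 6.20, 6.24 and 6.22 in null at E18.5, at 5.89, 6.03 and 5.81 in wild type and 6.04, 5.95 and 5.90 in null at P15, and at 5.38, 5.34 and 5.40 in wild type and 5.70, 5.87 and 5.31 in null at P90. The 6 E18.5 arrays were the highest, no array of a later age reached them, and at P90 null 1 and 2 stood above the other 4. Over both genotypes Kdr fell by 0.29 from E18.5 to P15 (adjusted p = 0.0050) and by 0.43 from P15 to P90 (adjusted p = 0.00072), in all by 0.72 ± 0.08 (adjusted p = 7.3e-07), which is 2.05-fold for natural logs or 1.64-fold for log2. On the deposited scale the whole difference was -0.30 and passed, while the steps were -0.039 and -0.26 and did not.

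Flt1 moved the other way. The gene, at chr5:147561604-147726438 in GRCm38.p6, stood at 5.42, 5.36 and 5.31 in wild type and 5.18, 5.38 and 5.36 in null at E18.5, at 5.62, 5.47 and 5.50 in wild type and 5.73, 5.47 and 5.46 in null at P15, and at 5.85, 5.83 and 5.79 in wild type and 5.80, 5.84 and 5.77 in null at P90. All 6 P90 arrays were above all P15 arrays, and these above all E18.5 arrays. Flt1 rose by 0.21 ± 0.057 from E18.5 to P15 (adjusted p = 0.0064) and by 0.27 ± 0.057 from P15 to P90 (adjusted p = 0.0026), in all by 0.48 ± 0.057 (adjusted p = 2.8e-06), a 1.61-fold (natural logs) or 1.39-fold (log2) rise. The later step was 0.080 and did not pass with array medians subtracted.

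Of their ligands and co-receptors, measured by 8 listed genes, 1 rose and 5 fell between E18.5 and P90 (6 and 0 on the deposited scale). Of all genes 26.8% rose and 29.1% fell. Nrp1 and Nrp2, the neuropilin co-receptors, fell by 0.60 ± 0.09 and 0.50 ± 0.09. Pgf, placental growth factor, which binds Flt1 and not Kdr, passed at -0.29 ± 0.070, as did Vegfa at -0.13 ± 0.049, though they turned to 0.40 and 0.25 on the deposited scale. Leaving out the 4 arrays, 1 rose and 3 fell.

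The angiopoietin receptor Tek fell across birth. The gene, at chr4:94739086-94874976 in GRCm38.p6, stood at 5.93, 5.96 and 5.88 in wild type and 5.90, 6.12 and 5.95 in null at E18.5, at 5.51, 5.76 and 5.57 in wild type and 5.67, 5.55 and 5.49 in null at P15, and at 5.52, 5.34 and 5.44 in wild type and 5.39, 5.53 and 5.25 in null at P90. No P15 or P90 array reached the lowest E18.5 array. Tek fell by 0.36 ± 0.07 from E18.5 to P15 (adjusted p = 0.00021) and by 0.55 ± 0.07 from E18.5 to P90 (adjusted p = 2.8e-06), with -0.11 and -0.12 on the deposited scale, where neither passed. The step from P15 to P90 was -0.18 ± 0.065 (adjusted p = 0.046), and -0.0013 on the deposited scale. That call ended in 8 of the 12 fits that left out 1 array of those ages, namely P15 null 1 or 2, P15 wild type 2 or 3, P90 null 1 or 3 and P90 wild type 2 or 3, with adjusted p of 0.056 to 0.12 and differences of -0.15 to -0.20.

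Tie1, the partner of Tek, fell after P15 in the quantile normalized values but not on the deposited scale. The gene, at chr4:118471191-118489849 in GRCm38.p6, stood at 4.94, 4.997 and 4.95 in wild type and 4.92, 5.02 and 4.98 in null at E18.5, at 4.90, 4.86 and 4.67 in wild type and 4.83, 4.86 and 4.93 in null at P15, and at 4.59, 4.66 and 4.57 in wild type and 4.55, 4.74 and 4.41 in null at P90. The P90 arrays overlapped the P15 arrays and lay below all E18.5 arrays. Tie1 fell by 0.26 ± 0.06 from P15 to P90 (adjusted p = 0.0048; 0.045 on the deposited scale), while its difference of -0.13 ± 0.059 from E18.5 to P15 did not pass (adjusted p = 0.086). Over the whole span it fell by 0.38 ± 0.06 (adjusted p = 4.1e-05), with 0.19 on the deposited scale. Whether the timing of Tek and Tie1 differs was not tested.

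Of 5 angiopoietin ligands and modulators of these receptors, 1 rose and 2 fell between E18.5 and P90 (3 and 0 on the deposited scale). These counts are near the shares of all genes, 26.8% higher and 29.1% lower. Angpt2, the ligand that loosens vessels by competing at Tek, differed by -0.55 ± 0.11 (adjusted p = 0.00044) and was at 0.0068 on the deposited scale. Svep1, a large matrix protein, fell by 0.33 ± 0.06 and was at 0.049 on that scale. Ptprb, the phosphatase that removes phosphate from Tek, rose by 0.28 ± 0.064. Angpt1, the activating ligand, differed by 0.057 ± 0.11 and did not pass (adjusted p = 0.70).

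Among the surface genes, Emcn, an endothelial sialomucin typical of capillaries and veins, fell across birth. The gene, at chr3:137341062-137431069 in GRCm38.p6, stood at 6.27, 6.27 and 6.20 in wild type and 6.38, 6.21 and 6.07 in null at E18.5, at 5.64, 5.73 and 5.52 in wild type and 5.59, 5.75 and 5.71 in null at P15, and at 5.52, 5.44 and 5.67 in wild type and 5.96, 5.75 and 5.37 in null at P90. Each P15 and P90 array was below every E18.5 array. Emcn fell by 0.58 ± 0.09 from E18.5 to P15 (adjusted p = 4.4e-05; -0.34, not passing, on the deposited scale), whereas its difference from P15 to P90, -0.037 ± 0.088, did not pass (adjusted p = 0.79) and turned to 0.13 on the deposited scale. Over the whole span it fell by 0.61 ± 0.09 (adjusted p = 1.9e-05), with -0.21, not passing, on the deposited scale.

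Pecam1, the adhesion molecule also called CD31, fell after P15 (-0.19 on the deposited scale). The gene, at chr11:106654213-106715281 in GRCm38.p6, stood at 6.06, 6.16 and 5.996 in wild type and 5.96, 6.12 and 5.77 in null at E18.5, at 6.15, 6.14 and 6.01 in wild type and 6.07, 6.01 and 6.01 in null at P15, and at 5.67, 5.58 and 5.82 in wild type and 5.88, 5.92 and 5.47 in null at P90. The E18.5 and P15 arrays overlapped, and all P90 arrays were below all P15 arrays. Its difference was 0.056 ± 0.082 from E18.5 to P15 (95% interval -0.12 to 0.23), and it fell by 0.34 ± 0.08 from P15 to P90 (adjusted p = 0.0060). From E18.5 to P90 it fell by 0.29 ± 0.08 (adjusted p = 0.0072), with 0.12 on the deposited scale.

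Esam, an adhesion molecule of endothelial tight junctions that platelets also carry, had the smallest difference of the 9 over the whole span. The gene, at chr9:37528089-37538319 in GRCm38.p6, stood at 4.98, 5.12 and 5.13 in wild type and 5.18, 5.12 and 5.21 in null at E18.5, at 5.05, 4.89 and 4.89 in wild type and 4.91, 5.09 and 5.04 in null at P15, and at 4.91, 4.83 and 4.84 in wild type and 4.97, 5.10 and 4.78 in null at P90. The ages overlapped. Esam fell by 0.22 ± 0.06 from E18.5 to P90 (adjusted p = 0.0062), but was higher by 0.30 on the deposited scale, where it passed as well. Neither step passed by itself, with -0.15 ± 0.061 (adjusted p = 0.056) and -0.072 ± 0.061 (adjusted p = 0.40). The first step passed on leaving out E18.5 wild type 1 (adjusted p = 0.040), P15 null 2 (0.048) or P15 wild type 1 (0.036).

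Of the secreted proteins, Egfl7, a matrix protein made by growing endothelium, fell across birth (-0.030 on the deposited scale). The gene, at chr2:26581083-26592682 in GRCm38.p6, stood at 5.46, 5.49 and 5.37 in wild type and 5.41, 5.67 and 5.56 in null at E18.5, at 5.23, 5.19 and 5.01 in wild type and 5.06, 5.44 and 5.30 in null at P15, and at 5.32, 5.32 and 5.005 in wild type and 5.05, 5.28 and 5.14 in null at P90. The P90 arrays lay below all E18.5 arrays, and 1 P15 null array reached into their range. Egfl7 fell by 0.29 ± 0.08 from E18.5 to P15 (adjusted p = 0.0064) and differed by -0.021 ± 0.080 from P15 to P90 (adjusted p = 0.87). Over the span it fell by 0.31 ± 0.08 (adjusted p = 0.0036), with 0.16 on the deposited scale. Egfl7 holds the endothelial microRNA Mir126a on the same strand, at chr2:26591357-26591429. It was named after its values were seen, and its mature sequence from RefSeq is printed with the seed, bases 2 to 8, in capitals.
miR-126a-3p: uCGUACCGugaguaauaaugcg
The probe set of its hairpin was dim, at 0.66 to 2.12 over all arrays, near the Y-linked level of 2.00 given above, so no direction was read from it.

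Vwf rose late. The gene, at chr6:125552948-125686679 in GRCm38.p6, stood at 5.06, 4.82 and 4.91 in wild type and 4.75, 5.11 and 5.10 in null at E18.5, at 5.07, 5.16 and 5.09 in wild type and 5.21, 5.08 and 4.97 in null at P15, and at 5.89, 5.62 and 5.39 in wild type and 5.44, 5.85 and 5.38 in null at P90. All 6 P90 arrays were above all P15 arrays, while E18.5 and P15 overlapped. Vwf rose by 0.50 ± 0.10 from P15 to P90 (adjusted p = 0.0021) and by 0.64 ± 0.10 from E18.5 to P90 (adjusted p = 5.4e-05), a 1.89-fold (natural logs) or 1.56-fold (log2) rise. Its difference of 0.14 ± 0.10 across birth did not pass. Vwf is also made by megakaryocytes and carried in platelets. Of 7 measured genes of these cells, 6 rose between E18.5 and P90 and 0 fell (7 and 0 on the deposited scale). Of all genes 26.8% rose and 29.1% fell. Their mean level was 3.83 to 4.24 over the E18.5 arrays, 5.001 to 5.41 at P15 and 5.13 to 6.09 at P90. Ppbp, a platelet chemokine, rose by 4.44 ± 0.24, Clec1b, a platelet receptor, by 2.17 ± 0.17 and Gp5, a subunit of the receptor for Vwf, by 1.42 ± 0.12. The defining platelet chemokine Pf4 differed by 0.48 ± 0.21 and did not pass (adjusted p = 0.063). From E18.5 to P15, when Vwf did not pass, 6 of the 7 genes of the list rose (24.4% of all genes), with a median of 1.02. From P15 to P90, when Vwf rose, 4 of the 7 rose and 0 fell (14.7% and 14.9% of all genes), with a median of 0.46. The part of platelets and their precursors in the level of Vwf was not tested.

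**Figure D3:**
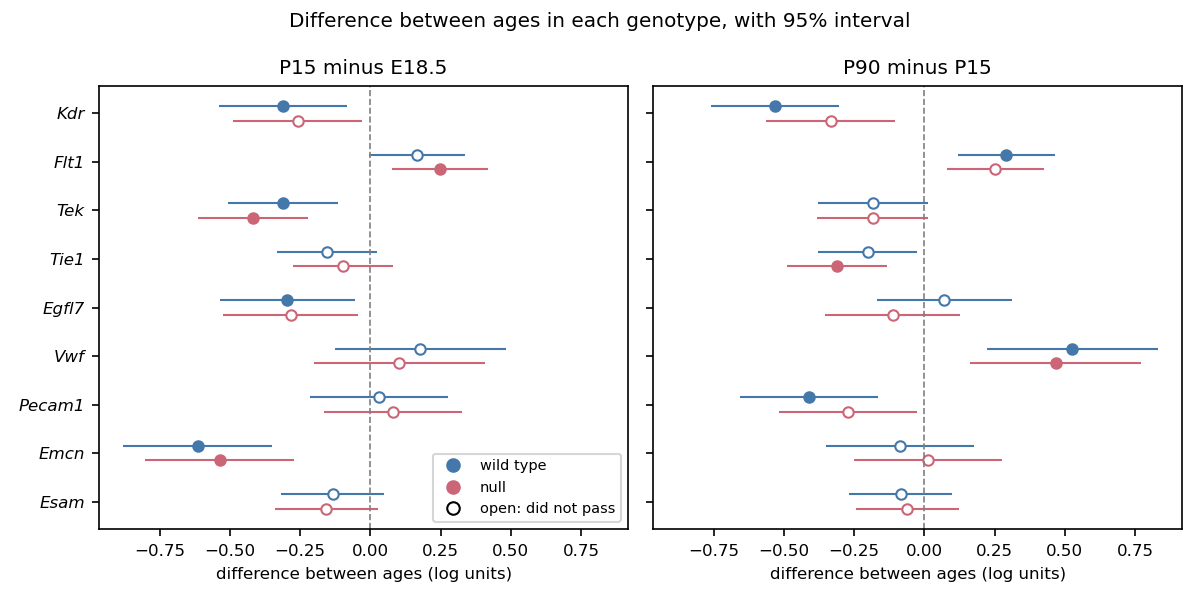
Difference between neighbouring ages (log units, horizontal axis) in wild type (blue) and null (red) with 95% intervals for the 9 endothelial genes; filled points passed the limma test, open points did not. In all 9 rows the intervals of the genotypes overlap in both steps.

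Within each genotype, with 3 arrays against 3, fewer genes passed at each step. From E18.5 to P15, 4 genes fell in wild type (Kdr, Tek, Emcn and Egfl7), where 41.5% of all genes were called, 19.7% higher and 21.9% lower, and in null Flt1 rose while Tek and Emcn fell (40.8% of all genes, 20.3% higher and 20.5% lower). From P15 to P90, Flt1 and Vwf rose and Pecam1 and Kdr fell in wild type (17.9%, 8.08% higher and 9.78% lower), and Vwf rose and Tie1 fell in null (13%, 6.12% higher and 6.83% lower). Across birth, Emcn fell by 0.62 in wild type and 0.54 in null, Tek by 0.31 and 0.42, both past the test in each genotype. Kdr differed by -0.31 (adjusted p = 0.029) and -0.26 (adjusted p = 0.066), Egfl7 by -0.30 (adjusted p = 0.048) and -0.28 (adjusted p = 0.057), and Flt1 by 0.17 (adjusted p = 0.12) and 0.25 (adjusted p = 0.023). After P15, Kdr differed by -0.53 (adjusted p = 0.0048) and -0.33 (adjusted p = 0.053), Flt1 by 0.29 and 0.25, Tie1 by -0.20 and -0.31, and Pecam1 by -0.41 and -0.27. After quantile normalization each of these pairs had the same sign in both genotypes. Vwf rose by 0.53 in wild type and 0.47 in null after P15. In wild type, Xist also differed between P15 and P90, as given above. A call in 1 genotype alone was not shown to differ from the other, since the F-test above passed for 0 of the 9 genes.

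The counts within a genotype depended on single arrays. The wild-type count across birth was 1 without P15 wild type 1 and 2 without E18.5 wild type 1, E18.5 wild type 2 or P15 wild type 3. The later wild-type count was 1 without P15 wild type 2, P90 wild type 1 or P90 wild type 2, 2 without P15 wild type 1 or 3, and 0 without the 4 arrays that stood apart. In wild type the call of Egfl7 across birth ended whichever of the 6 arrays was left out, with adjusted p of 0.054 to 0.18. In null Flt1 was not called across birth without E18.5 null 1 or P15 null 1 (adjusted p of up to 0.13), and the later count was 0 without P15 null 2, P15 null 3 or P90 null 1, and 1 without P90 null 3. Over both genotypes from E18.5 to P90 all 9 genes passed in each of the 12 fits that left out 1 array.

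The members also varied together between arrays of 1 group, most of all at P90 in null. There null 3 was the lowest array for 8 of 9 genes, with Egfl7 the exception, and null 2 the highest for 8 of 9, with Emcn the exception. The mean level of the 9 genes was 5.42, 5.54 and 5.21 in null 1, 2 and 3, and 5.41, 5.33 and 5.32 in the wild-type arrays of that age. Other lists moved in null 3 as well. The mean level of 25 other endothelial genes was 4.72, 4.80 and 4.60 in the null arrays, that of the 7 platelet genes 5.69, 6.09 and 5.13, and that of 9 cell cycle genes 5.11, 5.22 and 4.35. The part of these shifts in the endothelial values was not tested.

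**Figure D4:**
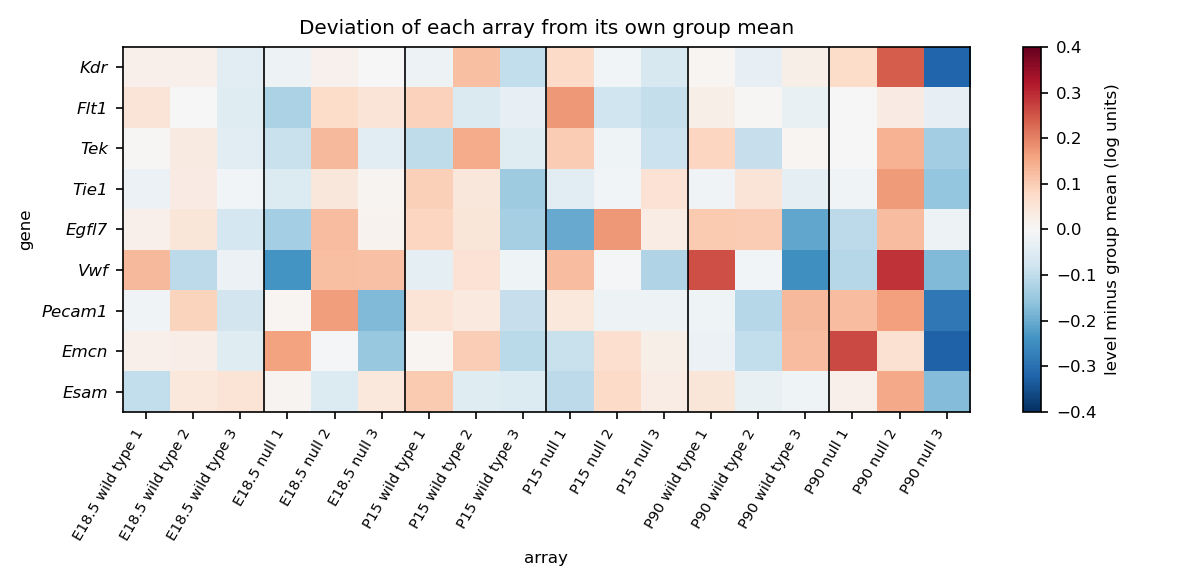
Level minus the mean of its own group (log units, colour) for the 9 endothelial genes (rows) in the 18 arrays (columns, 3 per group). The column of P90 null 3 is blue for nearly all genes and that of P90 null 2 red.

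Across the 18 arrays, deviations from the group means were positively correlated in 32 of the 36 pairs of members, with a median Pearson r of 0.39 and a range of -0.26 to 0.77. This is a description, since the arrays share their labelling and scaling. The mean deviation of the 9 genes was 0.15 in P90 null 2 and -0.18 in P90 null 3, against -0.081 to 0.069 in the others. Those arrays therefore weigh most in the correlations with the mean below, and r without them was not computed. Kdr followed the mean of the other members most closely (r = 0.86), then Tie1 (0.77), Tek (0.69) and Pecam1 (0.67), and Flt1 least (0.25). Outside the list, the genes whose deviations were most like the mean of the 9 were Itgb3 (r = 0.93), the integrin subunit of platelets and activated endothelium, Cnn2 (0.93), Cd93 (0.92), an endothelial receptor, Cxcl12 (0.90), Mylk (0.88), Slain2 (0.88), Gstt3 (0.87), Nrp1 (0.87), Tead1 (0.87) and Tagln2 (0.86). The median over all genes was -0.059. By group means, the nearest of the 6-point profiles were those of Helz, Rae1, Pou5f2, Suco and Csnk1g2, at root mean square distances of 0.011 to 0.017 log units.

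The wider vascular lists, which share some genes, were counted in the same fit to place the 9 genes. Between E18.5 and P90, 26.8% of all genes were called higher and 29.1% lower. Without the 4 arrays 4721 of all 19938 genes were called higher and 5069 lower. Of 25 other endothelial genes, 2 rose and 16 fell between E18.5 and P90, with a median of -0.36. Without the 4 arrays 2 rose and 14 fell, and on the deposited scale 13 rose and 3 fell. Erg, an ETS factor of endothelium, fell by 1.15 ± 0.07, and Aplnr, the apelin receptor of sprouting and venous vessels, fell by 1.22 ± 0.08. Cdh5, the cadherin of endothelial contacts, fell by 0.60 ± 0.08. S1pr1, a receptor that steadies vessels and that other cells of the ear may also use, rose by 0.92 ± 0.069.

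**Figure D5:**
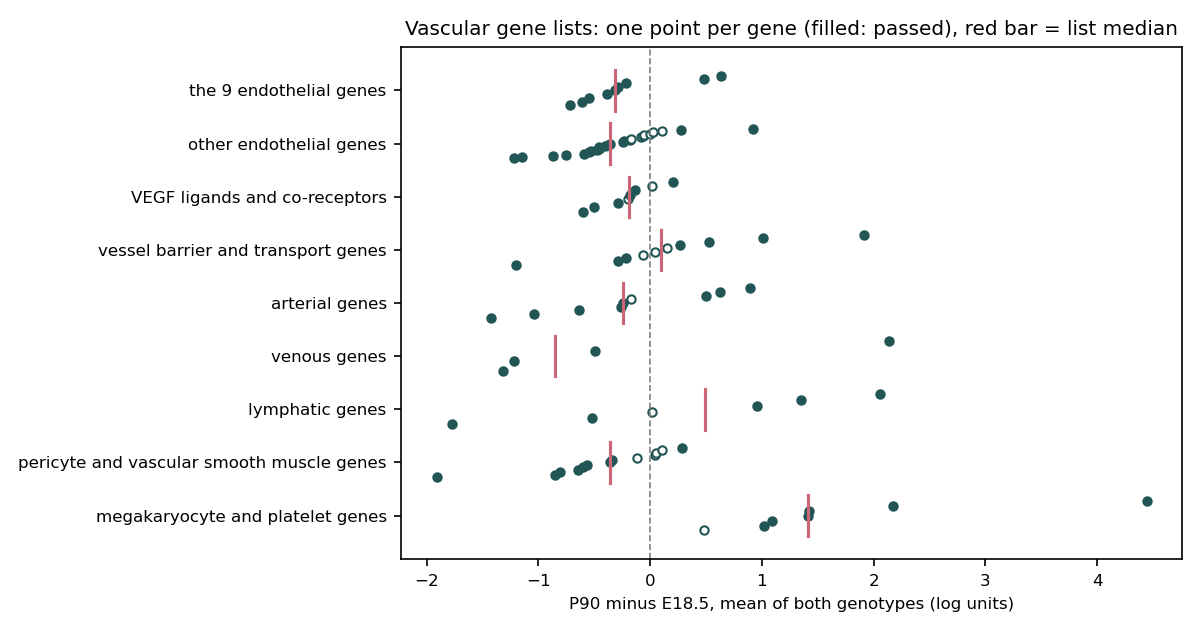
Difference between P90 and E18.5 over both genotypes (log units, horizontal axis) for each gene of 9 vascular lists; filled points passed the limma test and the red bar is the list median. The medians of the 9 endothelial genes (-0.31) and of the other endothelial genes (-0.36) lie below 0 after quantile normalization (both above 0 on the deposited scale, at 0.16 and 0.29), and the platelet list lies above 0.

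Genes of vessel specialisation went in both directions, as did all genes between E18.5 and P90 (26.8% higher and 29.1% lower). Of 10 barrier and transport genes, 4 rose and 3 fell between E18.5 and P90 (7 and 1 on the deposited scale). Slco1c1, a thyroid hormone transporter of barrier endothelium, rose by 1.92 ± 0.072 and Abcb1a, a drug efflux pump, by 1.01 ± 0.076. Lef1, a Wnt pathway factor, fell by 1.20 ± 0.07. Cldn5, the main claudin of endothelial tight junctions, differed by -0.068 ± 0.065 (0.43 on the deposited scale) and did not pass (adjusted p = 0.41). The counts without the 4 arrays were 3 and 2. For Slco1c1 nearly the whole rise had come by P15 (1.88 ± 0.072).

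Of 9 arterial genes, 3 rose and 5 fell (3 and 3 without the 4 arrays, 6 and 2 on the deposited scale), against 26.8% and 29.1% of all genes. Gja4, a connexin of arterial endothelium, fell by 0.64 ± 0.08 and was at 0.087 on the deposited scale. The related connexin Gja5 fell by 1.43 ± 0.08 and the ephrin Efnb2 by 1.03 ± 0.06, while the Notch target Hey1 rose by 0.50 ± 0.052. Of 4 venous genes, 1 rose and 3 fell (1 and 2 on the deposited scale). Ephb4, the receptor of Efnb2, fell by 1.32 ± 0.07, Aplnr fell as given above, Nr2f2 fell by 0.49 ± 0.04 and Ackr1, a chemokine scavenger of venules that red blood cells also carry, rose by 2.13 ± 0.10. Beside Ackr1, 5 of 6 erythroid genes rose and 0 fell, and their part in its level was not tested.

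Of 6 lymphatic genes, 3 rose and 2 fell (4 and 1 on the deposited scale), against 26.8% and 29.1% of all genes. Lyve1, a receptor of lymphatic endothelium and of some macrophages, fell by 1.77 ± 0.08, whereas Reln and Prox1, which neurons or sensory epithelium also express, rose by 2.05 ± 0.080 and 1.35 ± 0.13. Of 13 genes of pericytes and vascular smooth muscle, the cells that wrap vessels, 1 rose and 8 fell (7 and 3 on the deposited scale). Cspg4 fell by 1.91 ± 0.09, Pdgfrb, the receptor through which pericytes are recruited, by 0.64 ± 0.07 and Notch3 by 0.60 ± 0.06.

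Lists of other cells and states moved between E18.5 and P90 beside these genes. Of all genes 26.8% were called higher and 29.1% lower. All 10 vestibular epithelium genes fell (6 on the deposited scale), with Oc90, a protein of the otoconia, at -4.67 ± 0.15 and Myo7a at -0.51 ± 0.081 (0.071 on the deposited scale). Of 10 skeletal muscle genes 8 rose (8 on the deposited scale, but 3 higher and 2 lower with array medians subtracted), and of 9 cell cycle genes 8 fell (3 on the deposited scale). Of 10 macrophage genes 3 rose and 1 fell (7 and 1 on the deposited scale), and of 10 hypoxia response genes 1 rose and 5 fell (6 and 1 on that scale, 1 and 2 without the 4 arrays). The mean level of the muscle genes was 5.78 to 7.09 at E18.5 and 7.41 to 7.81 at P90. How far the mixture of cells set the endothelial values was not tested.

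Between genotypes, none of the 8 other vascular lists, from the other endothelial genes to the pericyte list, held a gene that passed at any age. Of the 25 other endothelial genes, the unadjusted limma p was under 0.05 for 5 at E18.5, 0 at P15 and 2 at P90, against 12.5%, 6.97% and 11.1% of all genes. It was under 0.05 for 4 of 10 barrier and transport genes at E18.5, and for the mean difference over the ages for 3 of 4 venous genes, all 4 of which were above 0 (7.68% of all genes). Among the other endothelial genes the smallest p belonged to Cldn5 at E18.5 (0.33 ± 0.093, adjusted p = 0.18), Icam2, an endothelial adhesion molecule, at P15 (-0.15 ± 0.081, adjusted p = 0.79) and Nos3, the endothelial nitric oxide synthase, at P90 (0.26 ± 0.078, adjusted p = 0.24). In the other lists, 4 of 10 skeletal muscle genes were higher in null at E18.5 (0 on the deposited scale, 1 with array medians subtracted). At P90 Cd14 of the macrophage list passed after quantile normalization and under neither other scaling, and Ocm of the vestibular list passed also on the deposited scale but not with array medians subtracted. How far these genotype differences of the lists rest on the 4 arrays that stood apart is not given here.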

How the data were processed

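RNA of 18 vestibular organ samples was hybridised to Affymetrix Mouse Gene 1.1 ST arrays after amplification of 100 ng, per the labels' protocols. The authors deposited log values of 28853 probe sets in 1 table, with a summarization and log base not given in the sources used here. Groups came from the sample titles. Symbols came from the platform annotation, updated through RefSeq (GRCm38.p6): 21789 probe sets had 1 symbol, 1621 several and 5443 were not listed. For each gene the probe set with the highest mean was kept, which left 19938 genes. The arrays were quantile normalized and fitted together, 1 mean for each group, by lmFit and eBayes of limma 3.58.1 in R 4.3.3 (prior degrees of freedom 2.98, Benjamini-Hochberg over all genes). The plan had not foreseen that the deposited arrays differed in scale by this much. Of 144 genes in 15 other lists, 135 were measured. Members and lists were chosen with earlier results of these data known. The text names all 9 members and, of each other list, up to 3 genes with the smallest p and its first gene. The fit was tested on simulated data. Alternatives were scaling, probe set choice, a filter on dim genes, the prior, a replicate block, a sex score (the mean of Y-linked genes), a term for or removal of 4 arrays, fits on fewer groups and leaving out each array.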

Additional observations from a re-analysis of the deposited data

How the results depend on the processing

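No alternative called any of the 9 genes between genotypes at E18.5, P15 or for the mean difference, or by the F-test, and at P90 only the fit without null 3 called 1 (range of the fits that left out 1 array: 0 to 1). The count from E18.5 to P90 over both genotypes stayed at 9 in all fits but the deposited scale (4) and the removal of the 4 arrays (7). The deposited scale gave 2 of 9 from E18.5 to P15 and 2 of 9 from P15 to P90 over both genotypes, and within a genotype 0 (wild type, E18.5 to P15), 2 (wild type, P15 to P90) and 1 (null, E18.5 to P15). Without the 4 arrays the count was 3 over both genotypes from E18.5 to P15 and 0 in wild type from P15 to P90, where a term for these arrays left 1 and a fit on only the 2 groups left 1. In null, a prior with an intensity trend and robust estimation gave 5 from E18.5 to P15 and 4 from P15 to P90, where leaving out dim genes gave 4, the sex score 1 and a fit on only the 2 groups 0. Leaving out 1 array at a time, the counts ran from 1 to 3 (wild type, E18.5 to P15), 1 to 4 (wild type, P15 to P90), 2 to 4 (null, E18.5 to P15) and 0 to 3 (null, P15 to P90). The cause of these changes was not tested, except that fits on fewer arrays have fewer degrees of freedom.

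The replicate numbers did not pair the samples: deviations of same-numbered null and wild-type arrays correlated at -0.19 to 0.24. With the replicate block, the count was 9 from E18.5 to P90 over both genotypes, 0 between genotypes at each age, 4 in wild type and 4 in null from E18.5 to P15, and 4 and 2 from P15 to P90.

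Of 1602 alternative values of single members, 113 had the opposite sign, and of these 6 passed the test in either fit. On the deposited scale, at E18.5 null minus wild type became Kdr -0.22, Tek -0.14, Tie1 -0.11, Esam -0.034, Vwf -0.070, Egfl7 -0.058. At P15 null minus wild type became Kdr -0.016, Flt1 -0.046, Emcn -0.017. At P90 null minus wild type became Flt1 0.15, Tek 0.12, Tie1 0.10, Vwf 0.10, Egfl7 0.10. Wild type P15 minus E18.5 became Tie1 0.072, Esam 0.092. Wild type P90 minus P15 became Tie1 0.011, Esam 0.081. Null P15 minus E18.5 became Kdr 0.061, Tie1 0.22, Esam 0.16, Egfl7 0.039. Null P90 minus P15 became Tek 0.11, Tie1 0.078, Esam 0.28, Egfl7 0.20. Both genotypes P15 minus E18.5 became Tie1 0.14, Esam 0.12. Both genotypes P90 minus P15 became Tie1 0.045, Emcn 0.13, Esam 0.18, Egfl7 0.19. Both genotypes P90 minus E18.5 became Pecam1 0.12, Tie1 0.19, Esam 0.30, Egfl7 0.16. With array medians subtracted, at E18.5 null minus wild type became Kdr -0.19, Tek -0.11, Tie1 -0.082, Esam -0.0063, Vwf -0.042, Egfl7 -0.030. At P15 null minus wild type became Kdr -0.013, Flt1 -0.043, Emcn -0.014. At P90 null minus wild type became Flt1 0.017. Wild type P15 minus E18.5 became Pecam1 -0.073. Wild type P90 minus P15 became Egfl7 -0.10. Null P90 minus P15 became Emcn -0.12. With the sex score as a covariate, at P15 null minus wild type became Emcn -0.013, Vwf 0.0011. At P90 null minus wild type became Emcn -0.0034. Null P90 minus P15 became Emcn -0.052. With a term for the 4 arrays, at E18.5 null minus wild type became Tie1 -0.036, Emcn 0.11, Vwf -0.19, Egfl7 -0.061. At P90 null minus wild type became Pecam1 -0.0040, Flt1 0.059, Tie1 0.0040, Vwf 0.16, Egfl7 0.11. Wild type P90 minus P15 became Emcn 0.055, Egfl7 -0.10. Both genotypes P90 minus P15 became Emcn 0.034. Without the 4 arrays, at E18.5 null minus wild type became Kdr -0.014, Tek -0.023, Tie1 -0.046, Emcn 0.13, Vwf -0.18, Egfl7 -0.025. At P90 null minus wild type became Pecam1 -0.064, Flt1 0.011, Vwf 0.17, Egfl7 0.15. Wild type P90 minus P15 became Emcn 0.037, Egfl7 -0.14. Both genotypes P90 minus P15 became Emcn 0.025. Leaving out 1 array at a time, the ranges of those that crossed 0 were as follows. At E18.5 null minus wild type, Kdr -0.015 to 0.016, Flt1 -0.10 to 0.0033, Tek -0.00027 to 0.11, Tie1 -0.014 to 0.037, Emcn -0.11 to 0.048, Vwf -0.0047 to 0.18. At P15 null minus wild type, Flt1 -0.066 to 0.068, Tek -0.093 to 0.032, Tie1 -0.0039 to 0.11, Emcn -0.0028 to 0.10, Vwf -0.081 to 0.040. At P90 null minus wild type, Pecam1 -0.016 to 0.21, Tek -0.11 to 0.027, Tie1 -0.13 to 0.037, Vwf -0.22 to 0.050. Wild type P15 minus E18.5, Pecam1 -0.0062 to 0.078. Null P15 minus E18.5, Pecam1 -0.0082 to 0.16, Vwf -0.018 to 0.16. Null P90 minus P15, Emcn -0.12 to 0.17, Esam -0.14 to 0.026. Both genotypes P90 minus P15, Emcn -0.10 to 0.044, Egfl7 -0.071 to 0.031. The number of arrays and the differing scales of the deposited values limit these small differences. So do the 4 arrays that stood apart and the Xist difference at P90. Which limit weighs most was not tested.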

Other observations

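Lists of other cells and states were also counted by step, with 53.2% of all genes called from E18.5 to P15 and 29.5% from P15 to P90. Over both genotypes, 10 of 13 genes of pericytes and vascular smooth muscle fell and 2 rose from E18.5 to P15 (6 and 2 on the deposited scale), against 3 that rose and 3 that fell from P15 to P90 (6 and 0 on that scale). Of 9 cell cycle genes, 1 rose and 1 fell in the first interval (1 and 0 on the deposited scale), and 9 fell in the second (8 on that scale), with a median of -0.78. All 10 skeletal muscle genes rose from P15 to P90 (7 with array medians subtracted), with a median of 0.84. The comparison over both genotypes was added after the data were seen, and neither a difference between the steps nor one between lists was tested.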
